A study of Sus scrofa with 12 samples.

Results

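The genes described here encode the ATP-driven pumps of the stomach lining other than its own proton pump. They are the P-type pumps that move sodium and potassium, calcium, copper, polyamines or membrane lipids, and the subunits of the vacuolar proton pump (V-ATPase). Members were all genes with a single symbol on the array that starts with ATP1, ATP2, ATP6 to ATP9 or ATP10 to ATP13, and the brightest feature of each gene was used. This gave 41 of the 10912 genes measured, with 23 in the P-type pump group, which includes the beta subunit family, and 18 V-ATPase genes. ATP4A and ATP4B, the subunits of the gastric proton pump, are not members and served only as a reference. Of the pumps that the naming rule lists by their biology, 13 of 22 were measured, and the others were not analysed here.

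Oxyntic mucosa, which lines the body of the stomach and secretes acid, was taken at 2 weeks of age from 12 piglets of a (Great York x Pietrain) x 'Dalland' cross. All of them were born by caesarean section, raised on artificial feed and given a starter mixture of Lactobacillus amylovorus, Clostridium glycolicum and Parabacteroides during their first days. The 6 CA (complex association) piglets then received an inoculant of diluted feces from an adult sow, and the 6 SA (simple association) piglets received a placebo. By the labels each treatment had a room of its own, but the study's methods can be read as placing both in each room or pen, with the groups balanced for litter, weight and sex. None of these is labelled per piglet, and the part of the room in the values was not tested. RNA of each piglet was hybridised to 1 porcine gene array, and levels are given below as log2 intensity after Robust Multichip Analysis by the authors.

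P-type pumps take up the phosphate of ATP on the pump protein itself and change shape to carry their cargo across a membrane, whereas the V-ATPase is a rotary motor whose V1 head splits ATP and whose membrane-embedded V0 ring passes protons. In the gastric gland the sodium-potassium pump of the basolateral membrane sets the ion gradients on which secretion depends, calcium pumps refill the stores released when the parietal cell is stimulated, and the V-ATPase acidifies lysosomes and secretory vesicles. The roles given below are known mainly from humans and mice.

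Median intensities of the 12 arrays lay between 55.6 and 57.6 on the linear scale, and pairs of arrays correlated at 0.977 to 0.994 across features. Of 17 parietal cell markers 10 were measured, and all 10 were brighter than the median feature, as the tissue label requires. Each had a higher mean in the CA group, with summed intensities of 11997 to 15871 in the CA and 9841 to 16237 in the SA piglets. The array of CA piglet 4 stood apart. It received the lowest weight in limma, 0.267, and it was the highest or the lowest of the 12 for 41.6% of all genes.

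The pump genes differed little between the CA and the SA piglets. At an adjusted p under 0.05 in limma 0 of the 41 passed, as did 0% of all genes. At an unadjusted p under 0.05 the tally was 1 gene higher in the CA piglets and 1 lower, against 2.06% and 1.22% of all genes in these directions, and by the exact permutation test over piglets it was 2 genes against 3.43%. The group means were higher in the CA piglets for 16 members and lower for 25, with a median log2 fold change of -0.022, where the median of all genes was 0.0063 and 52.7% of all genes were higher. The median size of the difference, without sign, was 0.060 for the pumps and 0.059 for all genes, and their median spread within groups (SD) was 0.156 and 0.160. For 37 of the 41 pumps the 95% confidence interval of the difference stayed within 0.5 on the log2 scale in both directions, a 1.41-fold change. Only 26 of the 41 were brighter than the median feature. Intensities near background understate changes, so the intervals of dim genes do not bound their change. No pump separated the groups without overlap, which 0.0733% of all genes did with the CA piglets higher and 0.055% with the CA piglets lower.

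**Figure D1:**
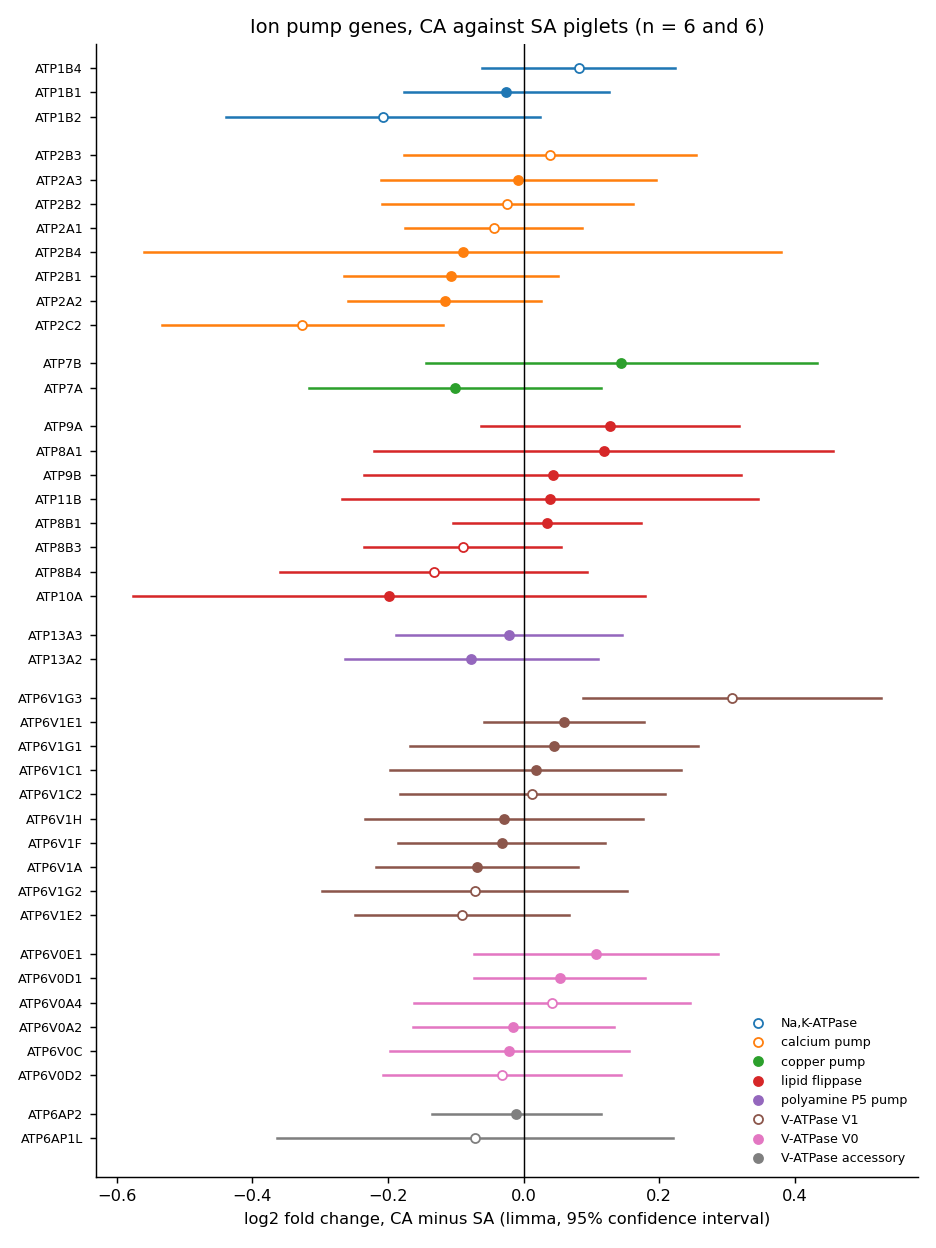
Difference of group means for the 41 pump genes, CA minus SA, on the log2 scale (x axis), grouped by pump class (colours), with bars for the 95% confidence interval from limma and open symbols for genes dimmer than the median feature. The intervals of ATP2C2 (below 0) and ATP6V1G3 (above 0) exclude 0 before adjustment, and those of the other pumps include it.

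Calcium pumps keep the calcium of the cytosol low by moving it into the endoplasmic reticulum, the Golgi or out of the cell. Of the 8 measured, 7 had a lower mean in the CA piglets and 1 a higher one, where 52.7% of all genes were higher. Their median log2 fold change was -0.067, and 1 of them had an unadjusted p under 0.05 in limma. Only 4 of the 8 were brighter than the median feature. ATP2C2 encodes SPCA2, which loads calcium and manganese into the secretory pathway of secretory epithelia, and it had the smallest p of all pumps. Its log2 levels were 5.81, 5.33, 5.57, 5.52, 5.63 and 5.62 in CA piglets 1 to 6, and 6.16, 6.08, 5.82, 5.69, 5.95 and 5.74 in SA piglets 7 to 12. Of the CA piglets, 5 were lower than every SA piglet and CA piglet 1 lay among the SA values. The log2 fold change was -0.33 ± 0.10 (SE, n = 6 and 6, 95% CI -0.53 to -0.12), with an unadjusted p of 0.00462 and an adjusted p of 0.999 in limma and a two-sided exact permutation p of 0.0108. Its feature was dimmer than the median feature of the array, at a log2 intensity of 5.82, and a setting that leaves such features out does not test it.

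SERCA2, the product of ATP2A2, is the pump of the endoplasmic reticulum in most cells. Its level was 9.81 to 10.03 in the CA piglets with a median of 9.96, and 9.91 to 10.25 in the SA piglets with a median of 10.04. The groups overlapped, and the log2 fold change of -0.12 ± 0.066 (SE) had an unadjusted p of 0.102 in limma and an exact permutation p of 0.0758. For ATP2A3 (SERCA3, of epithelial and blood cells) the difference was -0.0077, with a confidence interval of -0.21 to 0.20. Among the pumps of the plasma membrane, ATP2B1 (PMCA1) differed by -0.11 with an interval of -0.26 to 0.051, and by -0.055 without CA piglet 4, which was far below the others at 9.45. ATP2B4 (PMCA4) differed by -0.090 with the widest interval of all pumps, -0.56 to 0.38. ATP2A1 (SERCA1, of fast skeletal muscle), ATP2B2 and ATP2B3, pumps best known from neurons, were dim, with differences of -0.044, -0.024 and 0.039.

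Beta subunits of the sodium-potassium pump help it to fold and to reach the cell surface, and 3 genes of their family were measured. ATP1B1, the beta subunit of epithelia, lay between 11.28 and 11.57 in the CA piglets (median 11.51) and between 11.39 and 11.74 in the SA piglets (median 11.48). The ranges overlapped from 11.39 to 11.57, and the log2 fold change was -0.025 with a 95% confidence interval of -0.18 to 0.13. ATP1B2, a beta subunit known from glia and muscle, was dimmer than the median feature and differed by -0.21 ± 0.11 (SE), with an unadjusted p of 0.0745 in limma and groups that overlapped at 5.33 to 5.90 and 5.70 to 6.12. The dim ATP1B4, a muscle protein of the same family, differed by 0.081.

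The copper pumps ATP7A and ATP7B load copper onto enzymes and export any excess. ATP7A was 7.06 in CA piglet 4 and 7.57 to 7.70 in the other CA piglets, against 7.50 to 7.77 in the SA piglets. Its log2 fold change of -0.10 became -0.0045 without that piglet. ATP7B was highest in the same animal, at 8.26, whereas the other CA piglets lay between 7.38 and 7.83 and the SA piglets between 7.32 and 7.79. The difference of 0.14 became 0.037 without it. CA piglet 4 moved the group means of these copper pumps in opposite directions.

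**Figure D2:**
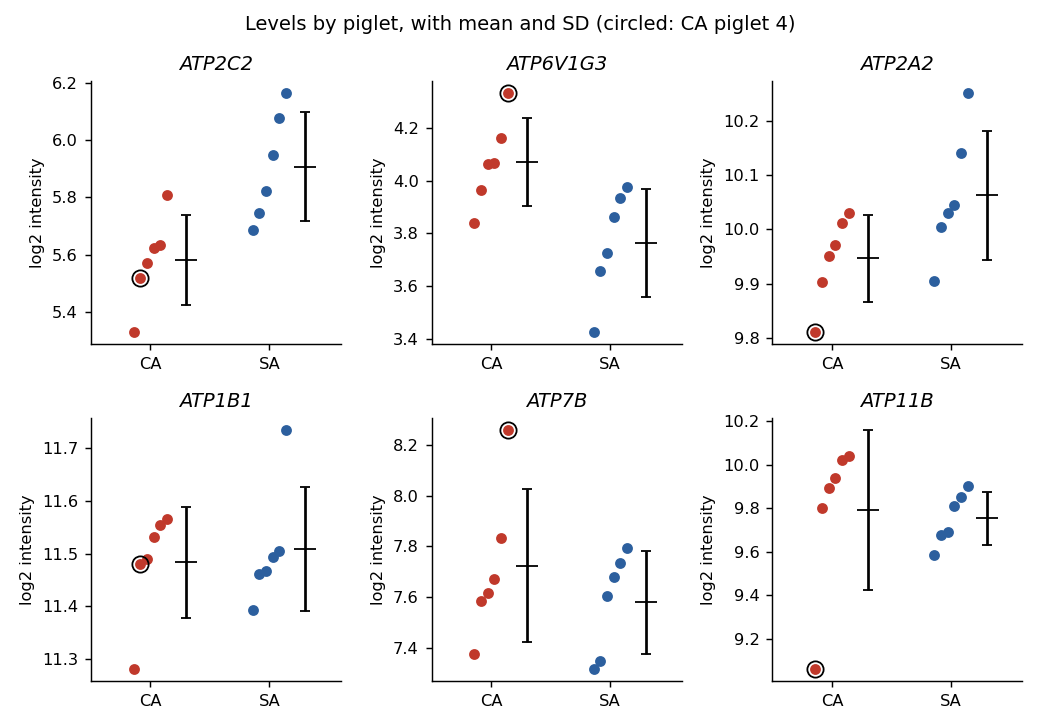
Log2 intensity (y axis, a separate range per gene) of ATP2C2, ATP6V1G3, ATP2A2, ATP1B1, ATP7B and ATP11B in the 6 CA (red) and 6 SA (blue) piglets, with mean and SD beside the points and CA piglet 4 circled. The groups overlap for each gene, and CA piglet 4 is the highest for ATP7B, at 8.26, and the lowest for ATP11B, at 9.06.

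Flippases move phospholipids to the cytosolic side of a membrane. Of the 8 measured the CA mean was higher for 5 and lower for 3, where 52.7% of all genes were higher. None was below an unadjusted p of 0.05 in limma. ATP9A, of endosomes, differed by 0.13 (unadjusted p = 0.172 in limma, exact permutation p = 0.190) and by 0.054 without CA piglet 4. ATP8A1, a phosphatidylserine flippase, was 7.90 to 8.61 in the CA piglets (median 8.32) and 7.83 to 8.14 in 5 SA piglets, with SA piglet 9 above all others at 8.78. The groups overlapped and the difference was 0.12 ± 0.16 (SE), with 0.047 without CA piglet 1 and 0.25 without SA piglet 9. ATP11B, of recycling endosomes, was 9.06 in CA piglet 4, while the other CA piglets lay between 9.80 and 10.04 and the SA piglets between 9.59 and 9.90. Its log2 fold change was 0.039 over all piglets and 0.19 without CA piglet 4. The latter had an unadjusted p of 0.0222 and an adjusted p of 0.982 in the limma model of all genes. This difference was the highest of 12 runs that each left out 1 piglet. The Golgi flippase ATP9B was lowest in the same animal, at 7.84, and differed by 0.043, or by 0.17 without it. ATP8B1, the flippase of apical membranes of epithelia, differed by 0.035 with an interval of -0.10 to 0.17, and ATP8B3 and ATP8B4, dim flippases of testis and white blood cells, by -0.090 and -0.13. ATP10A, which flips phosphatidylcholine, differed by -0.20 with an interval of -0.58 to 0.18. Without SA piglet 9 it was -0.33, with an unadjusted p of 0.0365 and an adjusted p of 0.752 in the limma model of all genes. Without SA piglet 11 it was -0.089, and these were the lowest and the highest of the 12 such runs. The lysosomal polyamine exporter ATP13A2 and its relative ATP13A3 differed by -0.077 and -0.022.

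Of the V-ATPase genes 8 were higher in the CA piglets and 10 lower, where 52.7% of all genes were higher. Their median log2 fold change was -0.013. ATP6V1G3, which encodes a stalk subunit best known from kidney, was the pump gene with the largest positive difference and the only one at an unadjusted p under 0.05 in that direction. Its log2 levels were 4.07, 3.97, 4.06, 4.33, 3.84 and 4.16 in CA piglets 1 to 6 and 3.93, 3.86, 3.43, 3.73, 3.97 and 3.66 in SA piglets 7 to 12. The ranges overlapped between 3.84 and 3.97. The difference was 0.31 ± 0.10 (SE, 95% CI 0.087 to 0.53), with an unadjusted p of 0.00973 and an adjusted p of 0.999 in limma and an exact permutation p of 0.0195, and without CA piglet 4, the highest, it was 0.26. The feature is dim, as are those of the other subunits that are made in few tissues. ATP6V0A4 and ATP6V0D2, known with it from acid-secreting cells of the kidney, differed by 0.042 and -0.032, ATP6V1C2 by 0.013 and the testis form ATP6V1E2 by -0.091, and all 4 were dimmer than the median feature. A dimmer feature of ATP6V0A4 differed by -0.11, so its features disagree in sign.

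Among the other V-ATPase genes the differences were small. ATP6V1A, the catalytic subunit of the head, was 8.49 to 8.85 in the CA piglets (median 8.74) and 8.72 to 8.91 in the SA piglets (median 8.77). The log2 fold change was -0.068 with a 95% confidence interval of -0.22 to 0.081, and it was -0.022 without CA piglet 4, the lowest piglet. ATP6V1E1, a stalk subunit, had the smallest spread within groups of all pumps, an SD of 0.068, and differed by 0.060 (interval -0.058 to 0.18). ATP6V0E1, a small subunit of the membrane sector, was 11.30 in CA piglet 4 and 10.82 to 10.98 in the other CA piglets, and 10.70 to 11.01 in the SA piglets, with a difference of 0.11 that became 0.040 without that piglet. The accessory protein ATP6AP2, the prorenin receptor, differed by -0.010 (interval -0.13 to 0.11), and ATP6AP1L, a dim relative of the other accessory protein, by -0.071. The remaining subunits, ATP6V1C1, ATP6V1F, ATP6V1G1, ATP6V1G2, ATP6V1H, ATP6V0A2, ATP6V0C and ATP6V0D1, differed by 0.018, -0.032, 0.045, -0.072, -0.028, -0.015, -0.021 and 0.053, in this order. Of these, ATP6V1G2 was dimmer than the median feature. Without CA piglet 4 ATP6V1G1 turned to -0.042, ATP6V1C1 was 0.088, ATP6V1F -0.079, ATP6V1H -0.054, ATP6V0A2 -0.041 and ATP6V0C -0.067. Over all 41 pumps 5 changed sign without this piglet, namely ATP13A3, ATP6V1C2, ATP6V1G1, ATP6V0A4 and ATP6AP1L.

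The pumps also varied between piglets of the same treatment. CA piglet 4 was the highest for 12 and the lowest for 10 of the 41 pumps, or 53.7% of them, against 41.6% of all genes. It was the highest for 5 V-ATPase genes above the median feature, namely ATP6V1F, ATP6V1G1, ATP6V0C, ATP6V0D1 and ATP6V0E1, and the lowest for the V1 subunits ATP6V1A and ATP6V1C1 and for ATP2A2, ATP2B1, ATP7A, ATP9B, ATP11B and ATP13A3. As a mean over their members, the V0 subunits lay 0.23 above the 12-piglet mean in this animal, and the flippases 0.19 below it. RNA quality per piglet was not analysed here, and its part in these values was not tested.

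**Figure D3:**
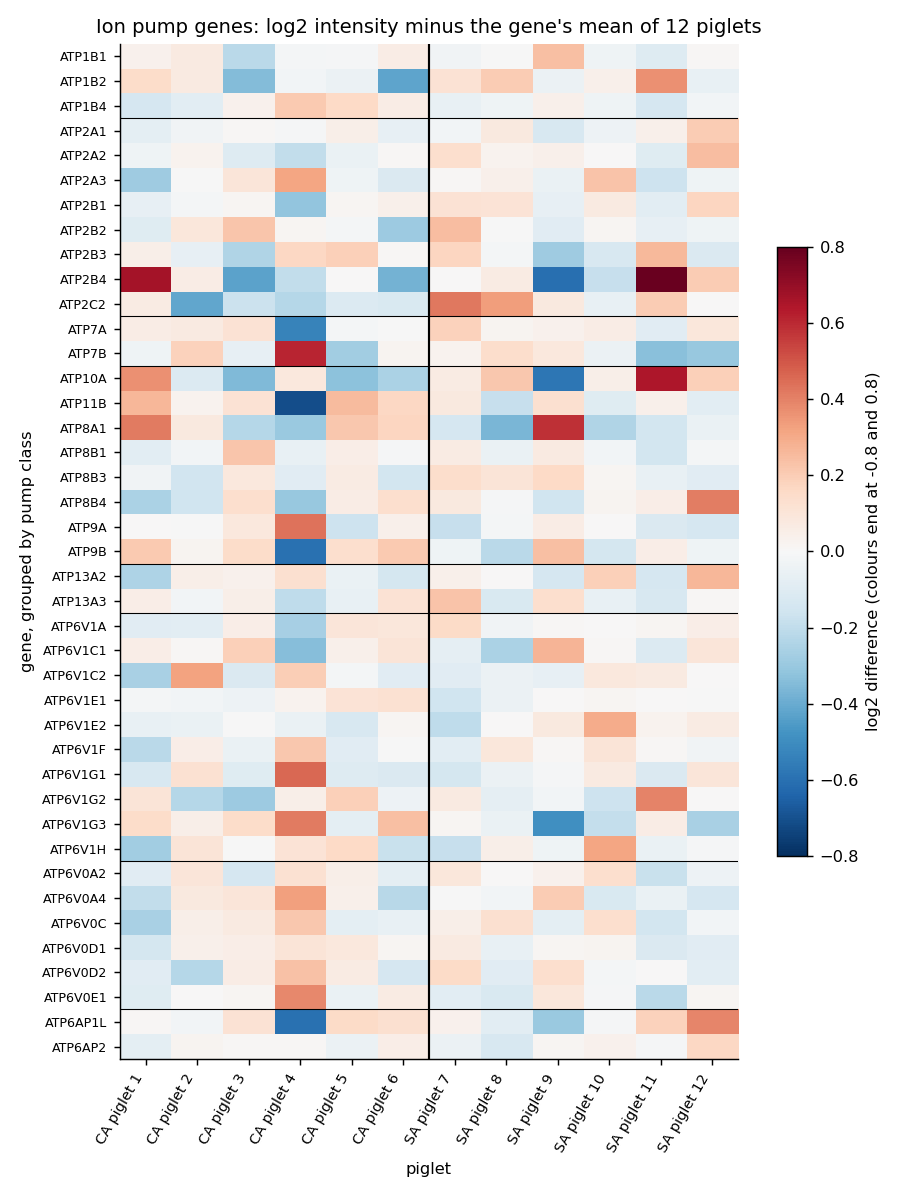
Log2 intensity of each pump gene (rows, grouped by class) minus its mean over the 12 piglets (columns, CA left and SA right of the line), from blue (lower) to red (higher), with colours ending at -0.8 and 0.8. CA piglet 4 is the highest or lowest piglet for 22 of the 41 genes, and ATP2B4 and ATP10A are high in CA piglet 1 and SA piglet 11 and low in SA piglet 9.

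ATP2B4 and ATP10A were the pumps with the largest spread within groups, with SDs of 0.43 and 0.34. ATP2B4, the plasma membrane calcium pump that is prominent in smooth muscle, was 8.99, 8.38, 7.90, 8.12, 8.32 and 7.94 in CA piglets 1 to 6 and 8.32, 8.38, 7.72, 8.14, 9.12 and 8.52 in SA piglets 7 to 12. It was highest in SA piglet 11 and CA piglet 1 and lowest in SA piglet 9. ATP10A was 6.66, 6.18, 5.94, 6.37, 5.96 and 6.04 in the CA piglets and 6.36, 6.51, 5.71, 6.34, 6.94 and 6.48 in the SA piglets, and the same animals were at its top and bottom. In the same animals the smooth muscle markers had this order. Their mean log2 level over ACTA2, TAGLN and CNN1, the 3 of 8 listed markers that were measured, was 11.62 in SA piglet 11, 11.34 in CA piglet 1 and 10.19 in SA piglet 9.

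Each gene was therefore also fitted on this mean across the 12 piglets, a fit added after the data were examined. Of the 41 pumps 2 passed an adjusted p under 0.05 in limma, ATP2B4 and ATP10A, both in the positive direction, as did 2.48% of all genes, and 0.33% passed in the negative direction. ATP2B4 rose by 1.07 ± 0.12 (SE, n = 12, adjusted p = 0.000236 in limma) per log2 unit of the smooth muscle mean, and ATP10A by 0.85 ± 0.13 (SE, adjusted p = 0.00184 in limma). With treatment as a covariate the slopes were 1.07 and 0.83. Without SA piglet 11, the piglet richest in these markers, they were 1.06 (adjusted p = 0.00697) and 0.83 (adjusted p = 0.0395) in limma. In bulk tissue more cells of a type and more RNA per cell cannot be told apart.

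The slopes of the 7 other calcium pumps ran from -0.19 for ATP2A3 to 0.28 for ATP2B3, and 0 of them passed. ATP2A2 had a slope of 0.00097, with a confidence interval of -0.22 to 0.23, and ATP2B1 one of 0.032. At an unadjusted p under 0.05 there were 5 positive and 3 negative slopes among the pumps, against 6.87% and 6.93% of all genes. The smooth muscle mean itself was 10.56 to 11.34 in the CA and 10.19 to 11.62 in the SA piglets and differed by -0.085 between the treatments (exact permutation p = 0.719). With this mean as a covariate, the difference between CA and SA was -0.32 for ATP2C2 and 0.33 for ATP6V1G3, close to the values without it, whereas that of ATP2B4 was 0.0010 and that of ATP10A -0.13. Summed intensities of the smooth muscle markers were 4881 to 7901 in the CA and 3947 to 9560 in the SA piglets. Those of 3 of 7 enteric neuron markers were 149 to 302 and 142 to 314, and the mean log2 level of these was also highest in SA piglet 11 and CA piglet 1 and lowest in SA piglet 9. How much of the variation of ATP2B4 and ATP10A belongs to either tissue was not tested.

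**Figure D4:**
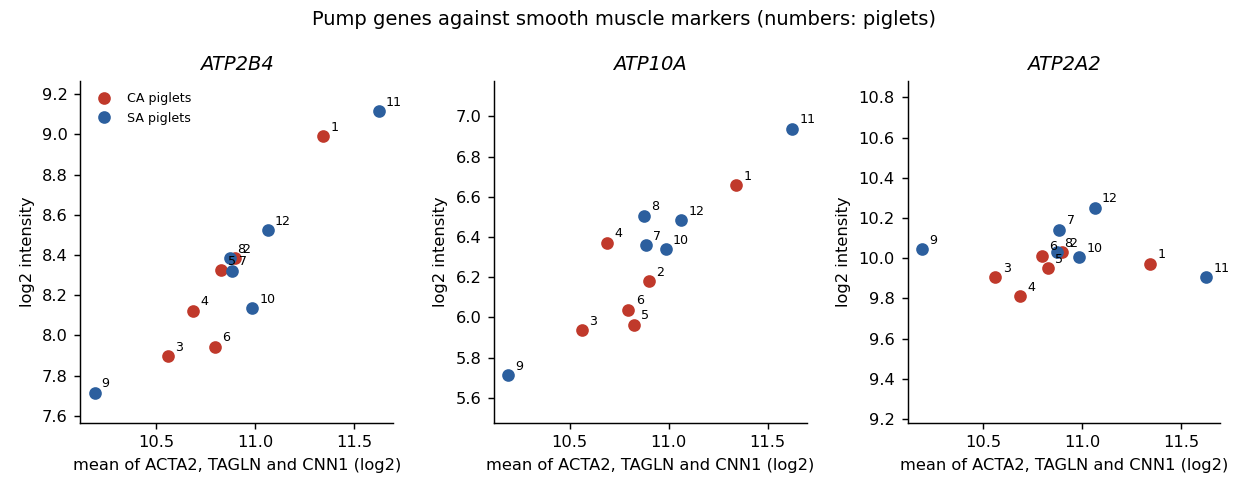
Log2 intensity of ATP2B4, ATP10A and ATP2A2 (y axes, the same span in each panel) against the mean log2 level of the smooth muscle markers ACTA2, TAGLN and CNN1 (x axis) in 6 CA (red) and 6 SA (blue) piglets, numbered as in the text. ATP2B4 and ATP10A rise with the markers, with slopes of 1.07 and 0.85, and ATP2A2 has a slope of 0.00097.

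Whether other pumps vary with the parietal proton pump was asked by fitting every gene on the level of ATP4A, its catalytic subunit. No pump passed an adjusted p under 0.05 in limma, against 0.88% of all genes. At an unadjusted p under 0.05 there were 3 positive slopes (ATP1B1, ATP8A1 and ATP7B) and 1 negative (ATP8B4), against 6.13% and 4.85% of all genes. ATP4A itself lay in separate ranges, 11.69 to 11.84 in 1 CA and 4 SA piglets and 12.05 to 12.22 in 5 CA and 2 SA piglets, so no correlation over all piglets is given. Its mean was 0.22 higher in the CA piglets, with an unadjusted p of 0.0350 in limma. The slopes over all piglets rest on the same ranges, and they are not separated from treatment unless treatment is named as a covariate.

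ATP1B1 had a slope of 0.37 ± 0.16 (SE) on ATP4A, with an unadjusted p of 0.0352 and an adjusted p of 0.407 in limma. With treatment as a covariate the slope was 0.62 ± 0.16 (SE), with an unadjusted p of 0.00237 and an adjusted p of 0.183 in limma, and no pump passed, against 0.202% of all genes. CA piglet 3 was lowest in ATP1B1 at 11.28 and SA piglet 9 highest at 11.74. Without the first the slope was 0.29 and without the second 0.28, with unadjusted p-values of 0.0882 and 0.0836 in limma. Within a treatment, the correlation of ATP1B1 with ATP4A was r = 0.974 and rho = 0.943 in the CA piglets (two-sided exact permutation p = 0.00556 and 0.0167) and r = 0.889 and rho = 0.886 in the SA piglets (exact permutation p = 0.0111 and 0.0333). Adjusted over the 8 relations computed within treatments, these p-values were 0.020 for r and 0.0667 for rho. ATP1B1 was picked for them after its values were seen, and the adjustment does not cover that choice among the 41 pumps. Within the CA piglets only CA piglet 3 lay in the lower range of ATP4A. Among the 7 piglets in the upper range r was 0.442. ATP8A1 had a slope of 0.86 ± 0.36 (SE, adjusted p = 0.396 in limma), with SA piglet 9 and CA piglet 1 as its highest piglets. ATP7B had one of 0.70 and ATP8B4 one of -0.61, and without CA piglet 4 that of ATP7B was 0.48. The slopes with treatment as a covariate were 1.02 for ATP8A1, 0.73 for ATP7B and -0.62 for ATP8B4. Their unadjusted p-values in limma were 0.0436, 0.100 and 0.0710, in this order.

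**Figure D5:**
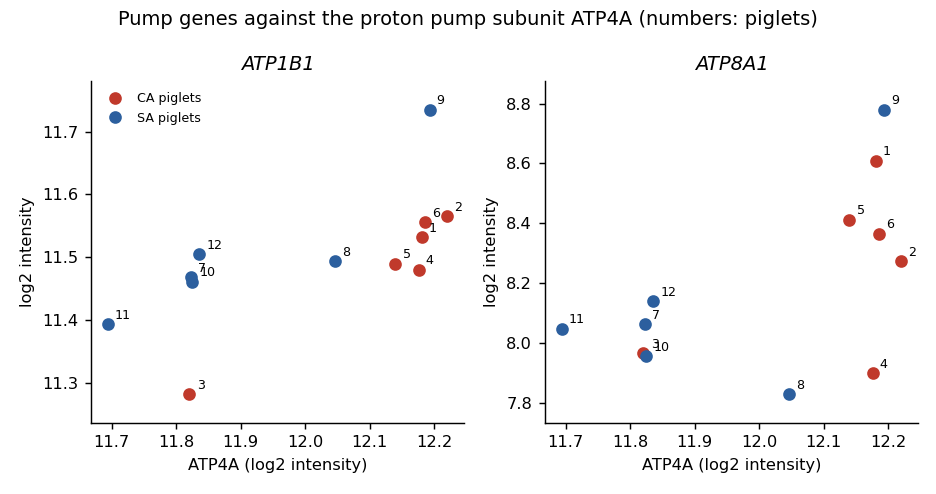
Log2 intensity of ATP1B1 and ATP8A1 (y axes, a separate range in each panel) against the log2 intensity of ATP4A (x axis) in 6 CA (red) and 6 SA (blue) piglets, numbered as in the text. ATP4A falls in ranges of 11.69 to 11.84 and 12.05 to 12.22, and SA piglet 9 is the highest for both pump genes.

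Genes that work with these pumps were followed in the same fits. Of 60 listed partners 36 were measured, with 15 higher and 21 lower in the CA piglets, where 52.7% of all genes were higher. At an adjusted p under 0.05 in limma 0 passed. At an unadjusted p under 0.05 there were 1 higher and 0 lower, against 2.06% and 1.22% of all genes. The gene was MITF, a relative of the transcription factor TFEB, with a difference of 0.24 and an unadjusted p of 0.0440 in the limma model of all genes. TFEB, which drives lysosomal genes, differed by -0.0059, TCIRG1, a V0 subunit without the ATP prefix, by 0.11, and the V-ATPase assembly factor VMA21 by -0.097. TMEM30B, the only measured one of 3 listed partner chains, which some flippases need to leave the endoplasmic reticulum, differed by 0.092, and the calcium store proteins CALR and CANX by -0.015 and -0.031. In the fit on the smooth muscle mean, 6 of the 36 partners passed an adjusted p under 0.05 in limma with positive slopes and 0 with negative ones, against 2.48% and 0.33% of all genes. They were PLN, the inhibitor of SERCA pumps in muscle, with a slope of 2.66, the calcium-binding store proteins CASQ2 (2.24) and CASQ1 (1.06), the calcium release channels RYR3 (1.29) and RYR2 (1.16), and NKAIN3 (1.26), of a protein family that binds beta subunits of the sodium-potassium pump. CASQ1 and NKAIN3 were dimmer than the median feature. Their mean log2 levels were 5.10 and 3.70 in the CA piglets and 5.57 and 3.66 in the SA piglets. ATP2A2, the SERCA pump of most cells, did not pass in that fit. In the fit on ATP4A 1 of the 36 partners passed, against 0.88% of all genes. This was the calcium release channel ITPR2, with a slope of 1.67 (adjusted p = 0.0312 in limma). ITPR2 differed by 0.31 between CA and SA, and its slope with treatment as a covariate was not examined here.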

How the data were processed

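Arrays of 6 CA and 6 SA piglets were analysed, grouped by their labels, and replicate numbers are the pig numbers. The authors hybridised RNA to Affymetrix porcine gene arrays and processed them by Robust Multichip Analysis (Affymetrix Expression Console, version not given in the sources used). The values deposited are linear intensities, already background-corrected, normalized and summarised, and were converted to log2. Each sample is a separate piglet, and the labels name neither strip nor scan.

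Of 27558 features, 11982 had 1 symbol in the platform annotation, 373 several and 15203 none, and the brightest feature per gene gave 10912 genes. The features with several symbols, a mitochondrial one among them, and those with none were left out. ATP13A3, listed under 2 gene identifiers, was kept as 1 gene. Of the 41 members 4 had several features. All genes were fitted with lmFit and eBayes of limma 3.58.1 in R 4.3.3, with Benjamini-Hochberg adjustment over all genes in the fit and no filter or covariate. The script was tested on simulated data. An exact permutation test, two-sided, over 924 splits of the piglets (smallest p 0.00216) was run in Python 3.11.15. A confidence level of 95% was used. The number of arrays limits the precision.

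The genes named are the 10 with the smallest p, those of a list chosen by biology, the 5 with the largest spread and the 5 with the highest and the 5 with the lowest correlation with ATP4A. Other members are given once. Members, lists and rules were chosen with earlier results of these data known. Alternatives were the mean of all features, only features above the median, quantile normalization again, median centring, eBayes with trend, array weights, ATP4B for ATP4A, treatment as a covariate and leaving out each piglet. The smooth muscle fits were added after seeing the data. The number of columns of sample values not used is 0.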

Additional observations from a re-analysis of the deposited data

Results flagged for a closer look

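In 54 groups of 6 piglets, 27 named pumps in each treatment, the highest or lowest piglet was compared with its nearest neighbour, as the gap divided by the whole range of the group and set against Dixon's 95% critical value. Chance alone gives about 1 in 20 groups past this value. Here 9 of the 54, or 16.7%, were past it, against 8.37% of the groups of all genes, and the 27 pumps include 5 picked for their large spread. CA piglet 4 was the piglet concerned in 5 of the 9. It was the lowest CA piglet for ATP7A (7.06 against 7.57 for the next, a gap of 0.797 of the range), for ATP6AP1L (4.53 against 5.10, 0.766), for ATP11B (9.06 against 9.80, 0.757) and for ATP2B1 (9.45 against 9.70, 0.704). It was the highest for ATP6V0E1 (11.30 against 10.98, 0.668).

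SA piglet 9 was the highest SA piglet for ATP1B1 (11.74 against 11.51, 0.673) and for ATP8A1 (8.78 against 8.14, 0.673). CA piglet 3 was the lowest CA piglet for ATP1B1 (11.28 against 11.48, 0.698). SA piglet 7 was the lowest SA piglet for ATP6V1E1 (9.84 against 9.95, 0.643).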

How the results depend on the processing

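The count of pumps at an adjusted p under 0.05 between CA and SA was 0 under each alternative run, and ATP2B4 and ATP10A passed the smooth muscle fit in 20 of 20 settings, with a highest adjusted p of 0.00697 and 0.0395 in limma. The values of ATP2B4 and ATP10A had prompted that fit, and the settings reuse the same piglets, so the settings are not independent evidence. No paired or blocked analysis was possible, because each piglet had 1 treatment and litter is not labelled per piglet. Littermates were therefore treated as independent. Without dim features the unadjusted counts between CA and SA were 0 higher and 0 lower, and 0 by the exact test, because ATP2C2 and ATP6V1G3 are dim. For the partners, the count higher was 0 with the mean of all features, with median centring and with smooth muscle as a covariate, and 2 with array weights, and the count lower was 1 with array weights and 1 with smooth muscle as a covariate. In the ATP4A fit, the negative count was 2 with quantile normalization and with median centring, and 0 without dim features, with ATP4B and with treatment as a covariate, and the positive count was 0 with median centring. In the smooth muscle fit, the positive count was 2 without dim features, and the negative count 0 with median centring and 5 with array weights. Leaving out each piglet in turn gave 1 to 2 pumps higher and 1 to 2 lower, 2 to 3 by the exact test, 0 to 2 partners higher and 0 to 1 lower, 0 to 3 positive and 0 to 2 negative slopes on ATP4A, and 2 to 5 positive and 0 to 6 negative slopes on smooth muscle. The cause was not tested.

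Of 502 values of single named pumps under alternatives, 480 kept their direction and 22 did not, and 17 of 27 genes never changed sign. ATP1B1 was 0.0042 with array weights, ATP2B4 0.0010 with smooth muscle as a covariate, ATP6V0A4 -0.034 with the mean of its features, and ATP6V1C2 -0.0016 with quantile normalization and -0.0052 with median centring. Leaving out piglets, the log2 fold change ran from -0.010 to 0.19 for ATP11B, -0.049 to 0.020 for ATP1B1, -0.071 to 0.048 for ATP2A3, -0.23 to 0.060 for ATP2B4, -0.14 to 0.041 for ATP6AP1L, -0.037 to 0.022 for ATP6AP2, -0.019 to 0.091 for ATP6V0A4, -0.081 to 0.010 for ATP6V0D2, -0.050 to 0.067 for ATP6V1C2 and -0.0067 to 0.055 for ATP8B1. The pumps were 16 higher and 25 lower as deposited, 15 and 26 with quantile normalization and 14 and 27 with median centring, where 44.3% of all genes were higher. Trend and array weights cannot enter an exact test. Intensities near background understate changes of dim genes.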
